A study of Mus musculus with 12 samples.

Results

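A set of 9 genes known for their part in making red blood cells were followed across the series, namely Epor, Gata1, Klf1, Hemgn, Alas2, Car1, Car2, Slc4a1 and Ank1. They were chosen by gene symbol, with earlier results of these data known. Every probe set that the array annotation gives to exactly 1 of these symbols was taken, 14 of 34945 such probe sets on the array, which stand for 9 of 18193 genes. Of the genes, 7 have 1 probe set, Ank1 has 4 and Slc4a1 has 3.

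Gene expression was measured on 12 Affymetrix mouse arrays, 3 in each of 4 groups. KO T-ALL arrays hold GFP+ bone marrow leukaemia cells from recipients of MBD2-/- cells, and WT T-ALL arrays hold the same kind of cells with the MBD2+/+ genotype. KO DP arrays hold CD4+CD8+ double positive cells of the thymus of MBD2-/- mice at steady state, and WT DP arrays hold those of MBD2+/+ mice. T-ALL is T-cell acute lymphoblastic leukaemia. Per the labels it was driven by Notch1, so both leukaemia groups share that driver and the transplantation, and neither thymocyte group has them. Leukaemic recipients were taken when GFP+ cells passed 50% of blood leukocytes, and each array received cRNA made from 7 µg of RNA. The labels give no vector, age, sex or litter and do not say whether arrays stand for separate mice, so p-values measure the spread between these samples. MBD2 is a protein that binds methylated CpG sites and recruits repressive complexes.

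Red cells form in the marrow from progenitors that depend on erythropoietin. GATA1 and KLF1 switch on the genes of haem synthesis, globin and the red cell membrane, and the cells then fill with haemoglobin and lose the nucleus. Thymocytes and T-cell leukaemias are not known as sites of red cell formation, while bone marrow holds erythroblasts beside any leukaemia. In bulk RNA of sorted cells, fewer cells of a type and less RNA per cell cannot be told apart.

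The targeted gene followed the labels: Mbd2 was lower in KO T-ALL than in WT T-ALL (log2 difference −3.58, adjusted p = 3.16e-05) and lower in KO DP than in WT DP (−3.70, adjusted p = 0.000718). Values are deposited intensities, and a log2 difference is the coefficient of limma on log2(intensity + 16), which understates the change of dim probe sets. A difference was called at a Benjamini-Hochberg adjusted p under 0.05 over 15420 genes, each with its brightest single-gene probe set. The brightest control probe set without a target reached an intensity of 35.3, and a level below that cannot be told from background. Marker genes of T cells summed to intensities of 19926 to 24550 in KO T-ALL, 30518 to 39079 in WT T-ALL, 61465 to 79318 in KO DP and 64852 to 82826 in WT DP, with 12, 14, 15 and 15 of 15 markers above background on average. Xist, which marks the inactive X chromosome of female cells, had a log2 difference of −6.32 between KO T-ALL and WT T-ALL (adjusted p = 1.39e-06), so Gata1 and Alas2, both on the X chromosome, were compared between leukaemias that also differ in Xist. Its part in their differences, or in those of the other members, was not tested. The Notch1 probe set was higher in KO T-ALL than in WT T-ALL (log2 difference 1.92, adjusted p = 0.000744). It was also higher in KO T-ALL than in KO DP (1.83, adjusted p = 0.000495), while WT T-ALL against WT DP did not pass (−0.13, adjusted p = 0.530). The leukaemia groups thus share the driver by label but differ in this reading, and its part was not tested.

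Promoter sequence was held for 5 of the 9 genes (RefSeq, build GRCm38.p6, 250 bases before to 50 bases after the annotated start), and not for Car1, Car2, Slc4a1 and Ank1. The windows of the 2 genes that were higher and of 2 of the genes that were lower in knockout leukaemia are shown, because GATA1 binds a GATA core and MBD2 binds methylated CpG. Capitals mark AGATAA or TGATAA read on either strand, so that TTATCT and TTATCA are the same motifs on the other strand. Each is printed 5′ to 3′ in the direction of its gene.
Hemgn: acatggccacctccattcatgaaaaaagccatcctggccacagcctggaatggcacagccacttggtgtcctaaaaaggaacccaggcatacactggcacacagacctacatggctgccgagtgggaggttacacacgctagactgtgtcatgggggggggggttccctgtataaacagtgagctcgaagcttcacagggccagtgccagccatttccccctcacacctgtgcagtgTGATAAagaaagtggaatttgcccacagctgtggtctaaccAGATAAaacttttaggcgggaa
Gata1: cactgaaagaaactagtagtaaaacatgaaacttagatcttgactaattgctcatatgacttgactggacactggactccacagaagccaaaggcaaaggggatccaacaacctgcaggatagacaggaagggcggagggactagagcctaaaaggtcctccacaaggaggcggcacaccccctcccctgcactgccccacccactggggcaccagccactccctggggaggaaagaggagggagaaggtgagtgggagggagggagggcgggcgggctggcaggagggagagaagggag
Epor: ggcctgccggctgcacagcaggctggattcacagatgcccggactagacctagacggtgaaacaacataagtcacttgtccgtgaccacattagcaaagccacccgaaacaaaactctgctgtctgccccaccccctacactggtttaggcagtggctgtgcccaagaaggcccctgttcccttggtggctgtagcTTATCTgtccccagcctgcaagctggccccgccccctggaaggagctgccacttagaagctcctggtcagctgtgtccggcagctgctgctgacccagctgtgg
Alas2: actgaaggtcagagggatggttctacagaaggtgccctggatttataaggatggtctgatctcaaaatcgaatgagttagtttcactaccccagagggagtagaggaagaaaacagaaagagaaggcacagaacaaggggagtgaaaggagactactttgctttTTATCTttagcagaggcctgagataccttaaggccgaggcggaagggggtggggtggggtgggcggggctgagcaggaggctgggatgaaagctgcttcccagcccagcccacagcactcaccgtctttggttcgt
These windows lie at chr4:46404134-46404433 on the minus strand for Hemgn, chrX:7967861-7968160 on the minus strand for Gata1, chr9:21963527-21963826 on the minus strand for Epor and chrX:150547167-150547466 on the plus strand for Alas2. The Gata1 window lies inside the annotated span of the gene. The Hemgn window has TGATAA starting 13 bases before the start site and AGATAA starting at base 29 after it. The Epor window has AGATAA on the other strand at 54 bases before the start, and the Alas2 window has it on the other strand at 86 bases before the start. Neither motif is in the Gata1 window. Klf1, whose window at chr8:84901732-84902031 on the plus strand is not shown, has TGATAA on the other strand at 80 bases before its start. Of 32851 mouse promoter windows of the same length, 11.2% hold AGATAA, 9.05% hold TGATAA and 18.6% hold at least 1 of them.

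The KLF1 core CCNCNCCC, searched on both strands with overlapping matches counted, was found 4 times in the windows of Hemgn, Epor and Alas2, 3 times in that of Gata1 and 0 times in that of Klf1, and 49.5% of all windows hold it. The 4 matches of Hemgn overlap one another in a run of G. CG dinucleotides number 4 for Hemgn, 3 for Klf1, 7 for Epor, 4 for Gata1 and 6 for Alas2, against a median of 7 over all windows. DNA methylation was not measured here, and a match or its absence in such a window says nothing about binding.

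In leukaemia cells the 9 genes did not move as a group. Hemgn and Gata1 were higher in KO T-ALL than in WT T-ALL, Car2, Epor, Slc4a1, Car1 and Alas2 were lower, and Klf1 and Ank1 did not pass the test. That is 7 of 9 genes, where 16.2% of all genes tested passed. The 9 genes were chosen with earlier results of these data known. Their share of calls beside that of all genes is therefore a description only, here and in the comparisons below. Car1 is one of the 7 but passed the filter on low values only through the 3 WT T-ALL arrays, where it is high, and is not read as support here or below. The 2 higher calls stand beside 9.19% of all genes called higher and the 5 lower calls beside 6.98% called lower, 1417 and 1076 genes. With arrays centred on their 75th percentile these counts are 1355 and 1656. With the replicate number as a block they are 1935 and 1936. The member genes had a median log2 difference of −0.45, against −0.06 over all genes. The 3 knockout arrays lay above the 3 wild-type arrays without overlap for Gata1, Klf1 and Hemgn and below them for the other 6 genes, where 15.0% and 18.4% of all genes did so.

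**Figure D1:**
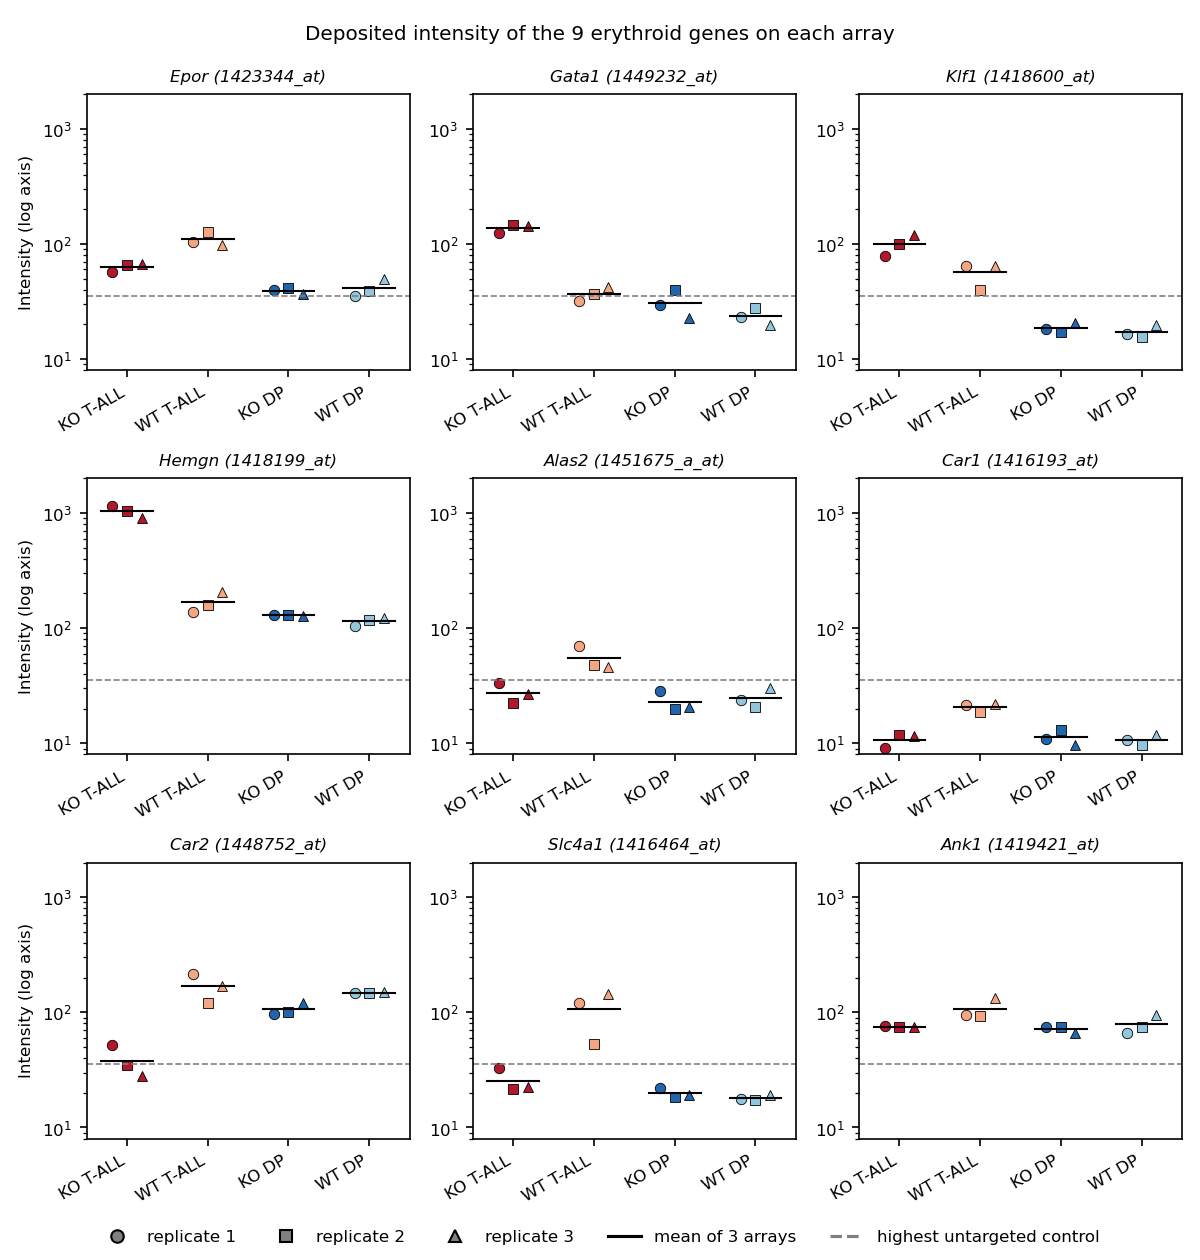
Deposited intensity (log axis) of the representative probe set of each of the 9 genes on each of the 12 arrays, with 3 replicates and their mean per group and the highest untargeted control at 35.3 as a dashed line. Hemgn and Gata1 stand highest on the 3 KO T-ALL arrays, Epor, Alas2, Car1 and Slc4a1 on the 3 WT T-ALL arrays, and Car1 lies below the line on every array.

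Hemgn encodes hemogen, a nuclear protein of blood progenitors and erythroid cells. Its probe set read 1159, 1037 and 903 in KO T-ALL and 138, 159 and 206 in WT T-ALL. In thymocytes it read 131, 129.9 and 127 in KO DP and 104, 118 and 121 in WT DP. Each knockout leukaemia was far above every other array, and wild-type leukaemias lay just above the thymocytes. The means were 1033 ± 128 in KO T-ALL and 167 ± 35.2 in WT T-ALL (SD, n = 3 each), a log2 difference of 2.53 (SE 0.17, adjusted p = 0.000136).

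Gata1 encodes the zinc finger factor that erythroid cells, megakaryocytes and mast cells need to mature. It read 123, 147 and 144 in KO T-ALL and 31.9, 36.9 and 42.1 in WT T-ALL. Thymocyte arrays read 29.3, 39.5 and 22.8 in KO DP and 23.4, 27.8 and 19.7 in WT DP. The knockout leukaemias stood clear of background, while in the other groups the arrays lay on both sides of it or below it. The log2 difference between KO T-ALL and WT T-ALL was 1.54 (SE 0.12, adjusted p = 0.000242).

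Klf1 encodes the erythroid factor that activates the adult beta globin gene. It read 79.2, 101 and 118 in KO T-ALL and 64.8, 40.01 and 64.7 in WT T-ALL. The thymocytes read 18.3, 17.2 and 20.4 in KO DP and 16.5, 15.6 and 19.9 in WT DP, all below background. The leukaemia genotypes did not overlap, but their log2 difference of 0.68 (SE 0.19) missed the threshold with an adjusted p of 0.0602 and passed it with the replicate number as a block (adjusted p = 0.0313).

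Epor encodes the receptor for erythropoietin. It read 57.2, 65.8 and 66.4 in KO T-ALL and 104, 128 and 98.0 in WT T-ALL, with no overlap. Thymocytes of both genotypes lay near background, at 39.7, 41.1 and 36.4 in KO DP and 35.3, 38.8 and 49.6 in WT DP. The log2 difference between KO T-ALL and WT T-ALL was −0.67 (SE 0.12, adjusted p = 0.0117).

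Alas2 encodes the erythroid form of the enzyme that opens haem synthesis. It read 33.4, 22.2 and 26.7 in KO T-ALL, all below background, and 69.7, 48.1 and 45.8 in WT T-ALL, all above it. The thymocyte arrays were below background too, between 19.7 and 28.7 in KO DP and between 20.6 and 30.1 in WT DP. The log2 difference between KO T-ALL and WT T-ALL was −0.69 (SE 0.16, adjusted p = 0.0315). The call was lost without KO T-ALL replicate 2 (−0.60, adjusted p = 0.0915), KO T-ALL replicate 3 (−0.68, 0.0687), WT T-ALL replicate 1 (−0.54, 0.0720) or WT T-ALL replicate 2 (−0.75, 0.0804).

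Car1 and Car2 encode cytosolic carbonic anhydrases, which interconvert carbon dioxide and bicarbonate, Car1 mainly in red cells and gut and Car2 in many tissues. Car2 read 51.5, 34.7 and 28.1 in KO T-ALL and 216, 121 and 168 in WT T-ALL, while thymocytes read 96.3, 100.2 and 122 in KO DP and 147, 146 and 151 in WT DP. It was therefore the member that stood lowest in knockout leukaemia among the 4 groups, with 2 of 3 arrays below background. Its log2 difference was −1.76 (SE 0.23, adjusted p = 0.00293).

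Car1 read 9.06, 11.8 and 11.5 in KO T-ALL and 21.4, 18.5 and 22.1 in WT T-ALL, and thymocytes lay between 9.72 and 13.1 in KO DP and between 9.68 and 11.7 in WT DP. Every array was below background, and the 3 WT T-ALL arrays alone let it pass the filter on low values. Its log2 difference of −0.45 (SE 0.10, adjusted p = 0.0218, and 0.0145 with no filter) is therefore between levels that cannot be told from background. The adjusted p was above the threshold without KO T-ALL replicate 1 (−0.41, adjusted p = 0.0717) or without WT T-ALL replicate 1 (−0.44, 0.0690), 2 (−0.50, 0.0566) or 3 (−0.43, 0.0653).

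Slc4a1 encodes band 3, the anion exchanger of the red cell membrane. Its brightest probe set read 32.5, 21.5 and 22.4 in KO T-ALL and 120, 53.6 and 144 in WT T-ALL, and thymocytes lay between 18.6 and 22.0 in KO DP and between 17.5 and 19.0 in WT DP. Only the 3 wild-type leukaemias were above background. The log2 difference between KO T-ALL and WT T-ALL was −1.48 (SE 0.31, adjusted p = 0.0192). The call was lost without KO T-ALL replicate 2 (−1.41, adjusted p = 0.0598) or WT T-ALL replicate 1 (−1.36, 0.0782), and with array weights (−1.04, 0.0688).

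The other Slc4a1 probe sets did not all follow. The second, 1434502_x_at, read 26.0, 16.7 and 17.9 in KO T-ALL and 42.5, 43.7 and 143 in WT T-ALL (log2 −1.19, SE 0.39, adjusted p = 0.102 over 28372 probe sets, of which 12.9% passed). The other, 1431743_a_at, was below background on every array and had a log2 difference of −0.07 (adjusted p = 0.694).

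Ank1 encodes ankyrin-1, which ties band 3 to the spectrin skeleton. Its brightest probe set read 75.7, 74.5 and 74.0 in KO T-ALL and 95.7, 93.8 and 134 in WT T-ALL, while thymocytes read 73.9, 74.8 and 66.5 in KO DP and 66.1, 74.7 and 94.5 in WT DP. The leukaemia genotypes did not overlap, but the log2 difference of −0.43 (SE 0.14) did not pass (adjusted p = 0.0875). Both other tested probe sets of Ank1 had log2 differences of −0.16 and −0.17 (adjusted p = 0.476 and 0.381), and 1452512_a_at, at 5.26 to 7.21 on all arrays, was left out by the filter on low values, so that 13 of the 14 probe sets were tested.

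**Figure D2:**
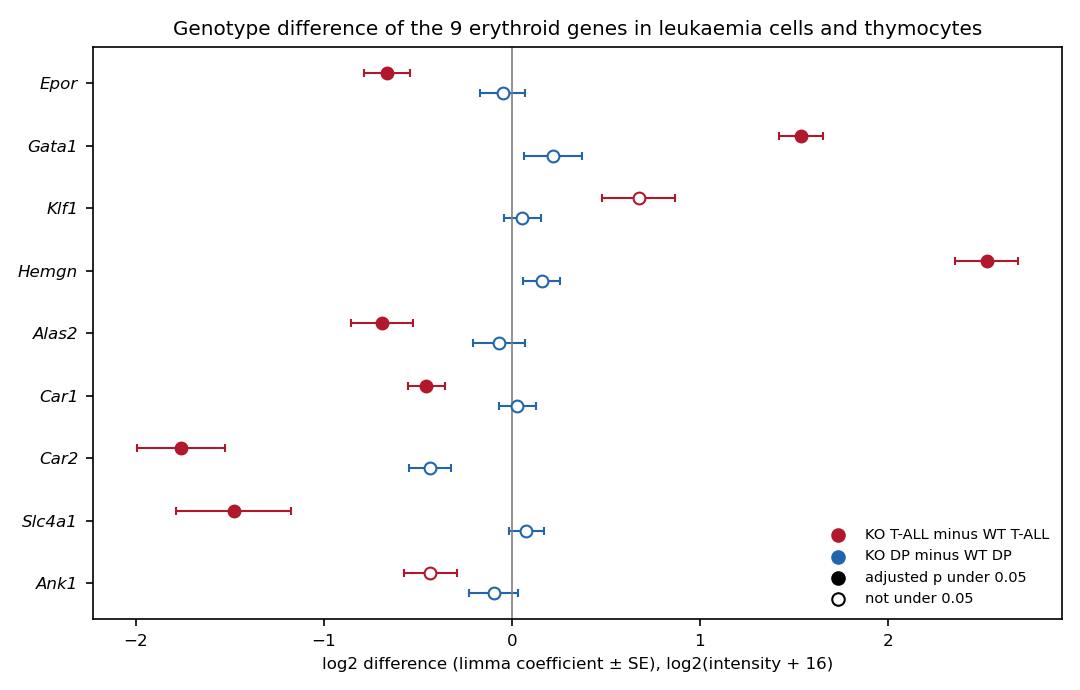
Log2 difference between genotypes (limma coefficient ± SE on log2(intensity + 16), 3 arrays per group) of the 9 genes in leukaemia cells and in thymocytes, with filled points for an adjusted p under 0.05. In leukaemia cells the filled points run from −1.76 for Car2 to 2.53 for Hemgn, and in thymocytes no point is filled.

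In thymocytes the comparison of genotypes gave 0 calls among the 9 genes by limma, where 5 of 15420 genes passed (0.0324%), 0.0195% higher and 0.0130% lower. One of the 9, Car2, had an unadjusted limma p under 0.05, with a log2 difference of −0.44 (SE 0.11, limma adjusted p = 0.842). It read 96.3 to 122 in KO DP and 146 to 151 in WT DP, and its arrays did not overlap, as for 4.58% of all genes. Hemgn stood the other way without overlap, at 127 to 131 in KO DP and 104 to 121 in WT DP (log2 0.16, SE 0.10, adjusted p = 0.982), as for 4.06% of genes. The other 7 genes overlapped, with log2 differences between −0.10 for Ank1 and 0.22 for Gata1.

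The test of the difference between the 2 genotype effects, in leukaemia minus in thymocytes, passed for 6 of the 9 genes, where 12.6% of all genes passed. It was positive for Hemgn (2.37, SE 0.19, adjusted p = 1.03e-05) and Gata1 (1.32, SE 0.20, adjusted p = 0.000937), beside 7.86% of all genes called positive. It was negative for Car2 (−1.33, SE 0.27, adjusted p = 0.00736), Slc4a1 (−1.56, SE 0.34, adjusted p = 0.0112), Car1 (−0.48, SE 0.12, adjusted p = 0.0247) and Epor (−0.62, SE 0.17, adjusted p = 0.0332), beside 4.74% called negative. Klf1 (0.62, adjusted p = 0.108), Alas2 (−0.62, adjusted p = 0.0985) and Ank1 (−0.34, adjusted p = 0.348) did not pass. Over all genes 1212 were positive and 731 negative, against 1024 and 1119 with arrays centred on their 75th percentile, which moves this difference by 0.13 on the log2 scale for every gene. Xist also differed in this test (−6.45), beside the X-linked Gata1, and so did Notch1 (1.96, adjusted p = 0.00026). The part of the deletion cannot be told apart from what goes with these differences. The Slc4a1 call was lost with array weights (−1.11, adjusted p = 0.0546) and with the adult globin level described further on as a covariate (−1.41, 0.0507). Car1 again entered only through its WT T-ALL arrays. The Epor call was lost without any of 7 arrays in turn and the Car1 call without any of 6, with values from −0.64 to −0.52 for Epor and from −0.48 to −0.44 for Car1. These were, for Epor, KO T-ALL 1 and 2, WT T-ALL 2, KO DP 1 and 2 and WT DP 1 and 2, and for Car1, KO T-ALL 1, WT T-ALL 1 and 3, KO DP 2 and WT DP 1 and 2.

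Wild-type leukaemias were set against wild-type thymocytes to see which of the genes the leukaemia cells show without the deletion. Epor, Klf1, Slc4a1, Alas2, Car1 and Gata1 were higher in WT T-ALL, 6 of 9 genes where 33.9% of all genes were called in either direction and 19.7% were called higher. None was lower, where 14.2% of all genes were. The log2 differences were 1.75 for Slc4a1 (SE 0.29, adjusted p = 0.00336), 1.14 for Epor (SE 0.14, adjusted p = 0.000882) and 1.10 for Klf1 (SE 0.16, adjusted p = 0.00206). Alas2 differed by 0.78 (adjusted p = 0.00848), Car1 by 0.46 (adjusted p = 0.00885) and Gata1 by 0.42 (adjusted p = 0.0361), all from thymocyte levels below background. Car1 passed the filter only through WT T-ALL here too. Xist was higher in WT T-ALL than in WT DP by 6.36 on the log2 scale (adjusted p = 2.82e-06), so the X-linked Alas2 and Gata1 were compared between groups that differ in Xist, and its part was not tested. In all, 7 genes lay above the thymocytes without overlap, against 27.6% of all genes, and 0 lay below them, against 18.0%.

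Hemgn missed the threshold here (log2 0.48, SE 0.15, adjusted p = 0.05003) and so did Ank1 (0.39, SE 0.17, adjusted p = 0.130). With the replicate number as a block both passed, at adjusted p = 0.00982 and 0.0130. Car2 did not pass (0.13, SE 0.19, adjusted p = 0.660). The Gata1 call was lost without WT T-ALL replicate 2 (0.42, adjusted p = 0.105) or 3 (0.35, 0.103) and without WT DP replicate 1 (0.42, 0.0964) or 3 (0.35, 0.0879).

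Knockout leukaemias against knockout thymocytes gave 4 genes higher, where 18.5% of all genes were, and 1 lower, where 11.0% were, with 29.4% called in either direction. The same 4 genes lay above the thymocytes without overlap, as 24.4% of all genes did, and the 1 lower gene lay below them, as 17.7% did. Hemgn had a log2 difference of 2.84 (SE 0.12, adjusted p = 7.6e-06), Gata1 of 1.74 (SE 0.15, adjusted p = 0.000199), Klf1 of 1.72 (SE 0.14, adjusted p = 0.000156) and Epor of 0.52 (SE 0.10, adjusted p = 0.00754). Car2 was lower by −1.19 on the log2 scale (SE 0.18, adjusted p = 0.00218). Slc4a1 (0.20, adjusted p = 0.332), Alas2 (0.15, adjusted p = 0.505), Ank1 (0.05, adjusted p = 0.770) and Car1 (−0.02, adjusted p = 0.903) did not pass. These comparisons share groups with those above, so their values are not independent of them.

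Set out by group, Hemgn ran from KO T-ALL over WT T-ALL and KO DP to WT DP, and no neighbours in that order overlapped. Gata1 and Klf1 had the same order, with an overlap of WT T-ALL and KO DP and of both thymocyte groups for Gata1, and of the thymocyte groups for Klf1. Epor, Alas2 and Slc4a1 had WT T-ALL first and KO T-ALL second, and below that KO T-ALL did not overlap the next group for Epor and did for Alas2 and Slc4a1. Car2 ran from WT T-ALL over WT DP and KO DP to KO T-ALL, with an overlap of WT T-ALL and WT DP only. Car1 stood apart in WT T-ALL alone, and every neighbour overlapped for Ank1.

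Haemoglobin transcripts give a readout of red cell material that the 9 genes do not include. A group of 4 probe sets is annotated to more than 1 adult globin gene and cannot be given to 1 of them. The probe set of the adult beta globins, 1417184_s_at, read 1367, 349 and 615 in KO T-ALL and 3241, 2391 and 2917 in WT T-ALL, against 118, 107 and 266 in KO DP and 238, 137 and 251 in WT DP. The alpha globin probe set 1452757_s_at read 2913, 342 and 585 in KO T-ALL and 5538, 4103 and 3814 in WT T-ALL, against 23.7, 71.7 and 377 in KO DP and 391, 25.5 and 268 in WT DP. Both were lower on every knockout than on every wild-type leukaemia. KO T-ALL and KO DP arrays overlapped for 1452757_s_at and did not for 1417184_s_at or the other alpha globin probe sets, which read 23.4 to 135 in KO T-ALL and 8.11 to 20.7 in KO DP for 1417714_x_at and 599.6 to 4516 in KO T-ALL and 110.4 to 582.4 in KO DP for 1428361_x_at.

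In a fit over all 35465 probe sets that are not controls and passed the filter, chosen after these levels were seen, KO T-ALL minus WT T-ALL was −2.06 for 1417184_s_at (SE 0.45, adjusted p = 0.0309), and −1.62, −1.997 and −2.37 for the 3 alpha globin probe sets (adjusted p = 0.0790, 0.125 and 0.0890). WT T-ALL minus WT DP was 3.70 for 1417184_s_at and 2.85 to 4.72 for the alpha globin probe sets, with adjusted p from 0.000148 to 0.00584. KO T-ALL minus KO DP was 2.03 for 1417184_s_at (adjusted p = 0.0265) and 1.33 to 2.95 for the others, which did not pass. The mean log2 intensity of the 4 probe sets, here called the adult globin level, was 10.3, 7.89 and 8.63 in KO T-ALL and 11.3, 10.8 and 10.9 in WT T-ALL. It was 5.99, 6.35 and 7.79 in KO DP and 7.80, 5.92 and 7.44 in WT DP.

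**Figure D3:**
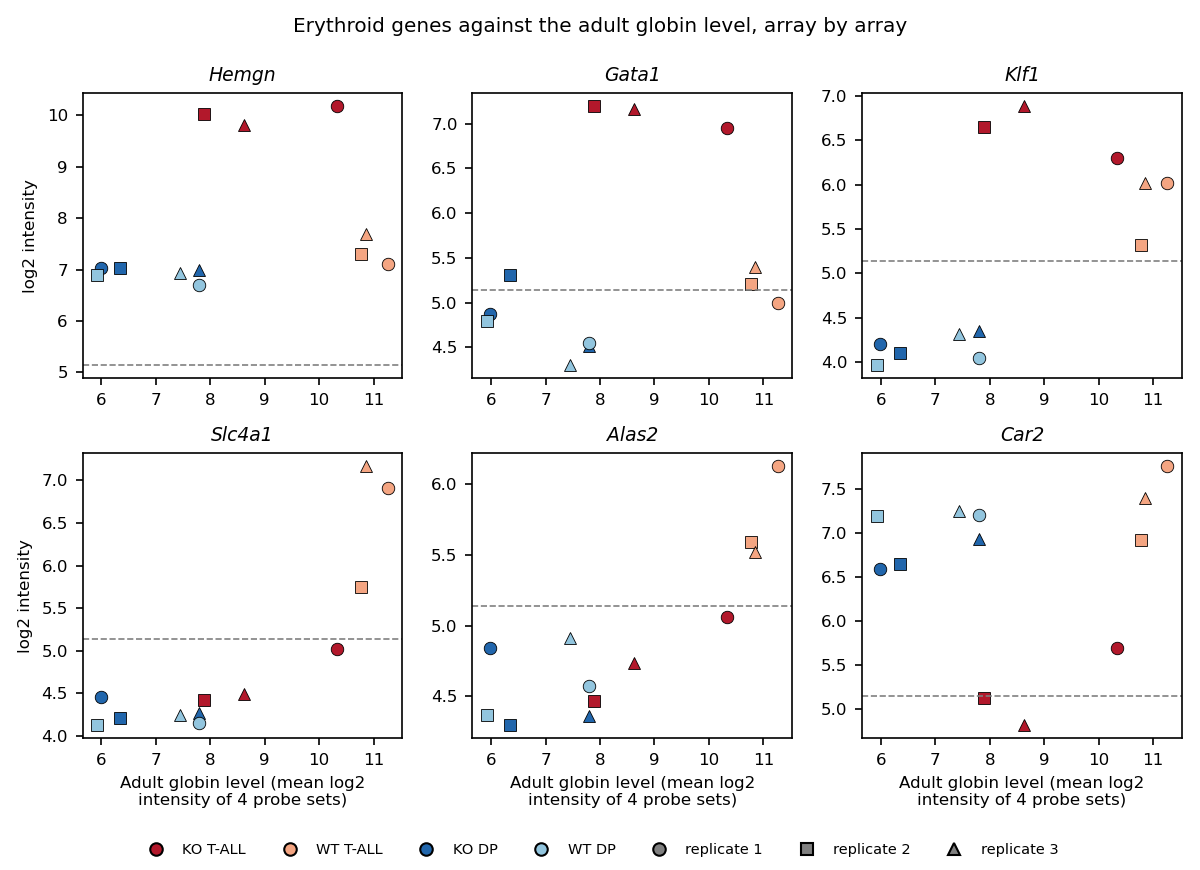
Log2 intensity of 6 of the genes against the adult globin level (mean of log2(intensity + 16) over 4 probe sets) on each of the 12 arrays, with the highest untargeted control as a dashed line. Slc4a1 and Alas2 lie above the line on the 3 arrays with an adult globin level of 10.8 or more, all WT T-ALL, while Hemgn and Gata1 are highest on the KO T-ALL arrays at 7.89, 8.63 and 10.3.

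The arrays of KO T-ALL differ most in adult globin, and the genes can be set beside it inside that group. Replicate 1 had the highest adult globin level of the 3, and it also had the highest reading of Slc4a1 (32.5, against 21.5 and 22.4), of Alas2 (33.4, against 22.2 and 26.7) and of Car2 (51.5, against 34.7 and 28.1). The same array had the lowest Gata1 (123, against 147 and 144), Klf1 (79.2, against 101 and 118) and Epor (57.2, against 65.8 and 66.4) of its group. Hemgn was highest there too, at 1159, against 1037 and 903. Replicate 1 is also the only KO T-ALL array with poly-A control signal, and its Gapdh ratio of 3′ to 5′ probe sets was 0.964, against 2.004 and 2.98. Inside WT T-ALL replicate 1 also had the highest adult globin level (11.3, against 10.8 and 10.9). It had the highest Alas2, Car2 and Klf1 of that group and the lowest Gata1 and Hemgn. Slc4a1 was highest there on replicate 3 (144, against 120 and 53.6). Epor was highest on replicate 2 (128, against 104 and 98.0), where the level was lowest. With 3 arrays per group these orders are a description only, and the part of array set and RNA quality was not tested. Between the leukaemia groups, Hemgn and Gata1 were higher in KO T-ALL, where the adult globin level was lower than in WT T-ALL, while in thymocytes, where that level was lowest, both genes were lowest too. Slc4a1, Alas2 and Epor were highest in WT T-ALL, as was the adult globin level.

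With the adult globin level added to the model as a covariate, also an alternative chosen later, Hemgn and Gata1 still passed between KO T-ALL and WT T-ALL (2.64, adjusted p = 0.00827, and 1.32, adjusted p = 0.0153). The 5 lower genes no longer passed: Car2 was at −1.26 (adjusted p = 0.120), Slc4a1 at −1.07 (0.393), Epor at −0.83 (0.0966), Car1 at −0.57 (0.155) and Alas2 at −0.33 (0.600). Without it they stood at −1.76, −1.48, −0.67, −0.45 and −0.69 in that order. The estimates of Epor and Car1 were thus larger in size with the covariate, and those of the others smaller. The covariate moves with genotype and left 3 residual degrees of freedom, and 810 genes passed in that fit against 2493 without it. Between WT T-ALL and WT DP, where the level separates the groups, 0 of the 9 genes and 42 of 15420 genes passed with it, and the part of red cell RNA and of cell type cannot be told apart there. Between KO T-ALL and KO DP the same fit kept Hemgn (2.73, adjusted p = 0.000675), Gata1 (2.03, 0.00244), Klf1 (1.88, 0.00409) and Epor (0.67, 0.0301) higher and Car2 (−1.61, 0.00457) lower. In the difference of genotype effects the covariate kept Hemgn (2.38, adjusted p = 0.000103), Gata1 (1.10, 0.0036), Car2 (−1.06, 0.0337), Car1 (−0.53, 0.0383) and Epor (−0.70, 0.0444). Slc4a1 did not pass there (−1.41, 0.0507), and 1624 of 15420 genes did.

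Of 8 other erythroid markers listed, 4 have a single-gene probe set. Those of Rhag and Epb42 were never above background, nor was the one given to Hba-a1 alone, while the probe sets that Hba-a1 shares with Hba-a2 were bright in leukaemia cells as described above. Their summed intensity was 86.8 to 140.4 in KO T-ALL and 118 to 147 in WT T-ALL. In thymocytes it was 81.4 to 97.1 in KO DP and 85.3 to 87.7 in WT DP. The background level sums to 141 over 4 probe sets, and only WT T-ALL replicate 3, at 146.5, exceeded it. WT T-ALL lay above WT DP without overlap, but all sums other than that 1 cannot, as sums, be told from background. Of the 4 probe sets, 1 averaged above background in each group. Ermap, an erythroid membrane adhesion protein and the only one above background, had a log2 difference of −0.31 between KO T-ALL and WT T-ALL (adjusted p = 0.383) and was higher in WT T-ALL than in WT DP by 0.72 (adjusted p = 0.00182).

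Embryonic beta-like globin, Hbb-y, which mouse embryos use in their first red cells, was read in knockout leukaemias. Its probe set 1436717_x_at read 326, 45.3 and 156 in KO T-ALL, and between 4.46 and 5.16 in WT T-ALL, 4.01 and 6.24 in KO DP and 4.79 and 5.799 in WT DP. The probe set 1436823_x_at read 325, 45.6 and 167 in KO T-ALL and at most 5.21 on every other array. Both passed the filter on low values only through the 3 KO T-ALL arrays, and all other arrays were far below background, so their readings are given without a test. The remaining Hbb-y probe set, 1450621_a_at, which represents the gene in the main test, read 127, 31.3 and 41.8 in KO T-ALL and 15.5 to 18.6 in WT T-ALL (log2 1.17, SE 0.39, adjusted p = 0.0932).

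All 3 Hbb-y probe sets were highest on KO T-ALL replicate 1 and lowest of that group on replicate 2, the order of the adult globin level, while WT T-ALL had the higher adult globin. The suffix _x_at marks probe sets that may also bind other transcripts. The other embryonic globins, Hbb-bh1 and Hba-x, were below background on all arrays.

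**Figure D4:**
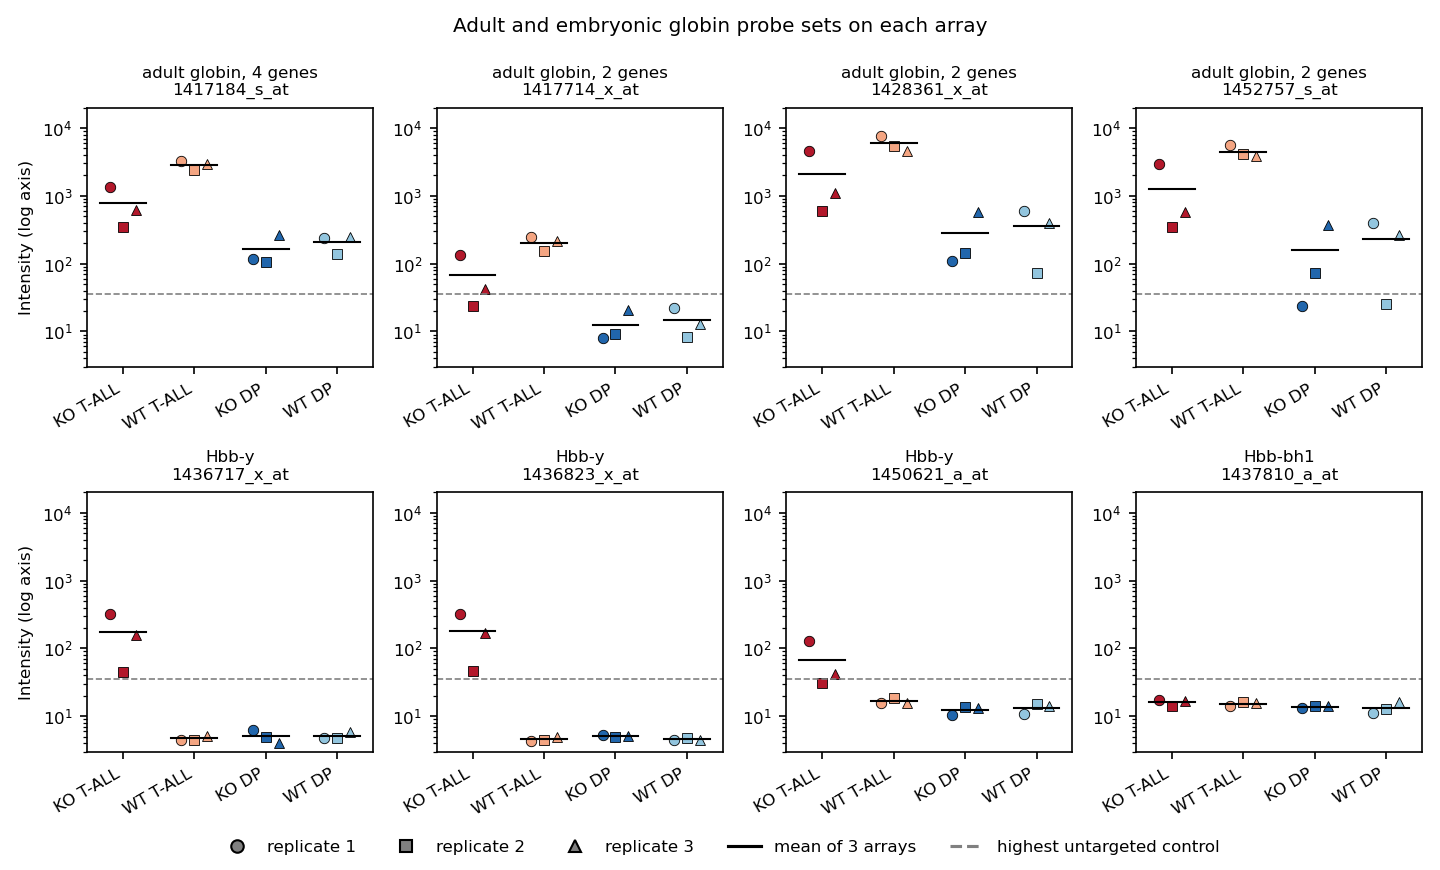
Intensity (log axis) on each of the 12 arrays of the 4 probe sets annotated to several adult globin genes, the 3 probe sets of Hbb-y and 1 of Hbb-bh1, with group means and the highest untargeted control. The adult globin probe sets are highest in WT T-ALL, Hbb-y is above the line on KO T-ALL arrays alone (3 of 3 for 2 probe sets, 2 of 3 for the other), and Hbb-bh1 is below it everywhere.

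Genes that act with the 9 members were followed in lists, chosen with earlier results of these data known. Beside each count stand the 9.19% of all genes that were higher and the 6.98% that were lower between these groups. Of 23 erythroid transcription factors and cofactors tested, 9 were higher and 1 lower in KO T-ALL than in WT T-ALL, and 13 did not pass (median log2 0.05). Nfe2, which drives platelet and globin genes, had a mean of 1296 ± 26.3 in KO T-ALL, against 20.7 to 31.5 in WT T-ALL, with a log2 difference of 4.96 (SE 0.12, adjusted p = 3.1e-06). Lyl1 and Lmo2, partners in the stem cell and erythroid complex around TAL1, differed by 5.14 (SE 0.14, adjusted p = 4.52e-06) and 3.85 (SE 0.16, adjusted p = 2.07e-05). Gfi1b, a repressor needed for erythroid and megakaryocyte development, differed by 1.16 (SE 0.11, adjusted p = 0.000659).

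Of 16 genes of erythropoietin receptor signalling tested, 6 were higher, 1 was lower and 9 did not pass (median 0.47). Stat5a, the transcription factor below the receptor, differed by 1.33 (SE 0.11, adjusted p = 0.000337), and Jak2, the kinase bound to it, by 1.17 (SE 0.14, adjusted p = 0.00155). Kit, the stem cell factor receptor that acts beside it in progenitors, differed by 4.05 (SE 0.34, adjusted p = 0.000368), and Plcg1 by 1.19 (SE 0.16, adjusted p = 0.00313).

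Of 9 genes of iron uptake and storage, 2 were higher and 0 lower (median 0.56). They were Tfr2, the second transferrin receptor, at 1.55 (SE 0.14, adjusted p = 0.000604), and Hfe at 0.75 (SE 0.15, adjusted p = 0.0179). Of 12 genes of haem synthesis and mitochondrial iron, 0 were higher and 2 lower (median −0.30), Slc25a37, the mitochondrial iron importer, at −0.68 (adjusted p = 0.0191) and Alad, the second enzyme of haem synthesis, at −0.65 (adjusted p = 0.0499). Of 15 red cell membrane genes, 1 was higher and 2 were lower (median −0.10). Gypc, glycophorin C, differed by 1.90 (SE 0.19, adjusted p = 0.000902), Tspan33 by −0.57 (adjusted p = 0.0162) and the water channel Aqp1 by −0.65 (adjusted p = 0.0370).

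Of 15 late erythroblast genes, 2 were higher and 3 lower (median −0.24), with Mfsd2b at 0.74 and Ctse at 1.43 on the higher side (adjusted p = 0.00813 and 0.0107) and Fn3k at −0.68 and Tent5c at −0.93 on the lower (adjusted p = 0.00486 and 0.0163). None of the 6 globin genes with a single-gene probe set passed by limma. Of 28 paralogues of the members, 3 were higher and 2 lower (median 0.00), shares close to those of all genes, among them Car9, a membrane carbonic anhydrase, at 2.04 (SE 0.17, adjusted p = 0.000323), and Alas1, the housekeeping form of the first haem enzyme, at −0.59 (adjusted p = 0.0227). In thymocytes none of the genes in these lists passed between KO DP and WT DP.

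**Figure D5:**
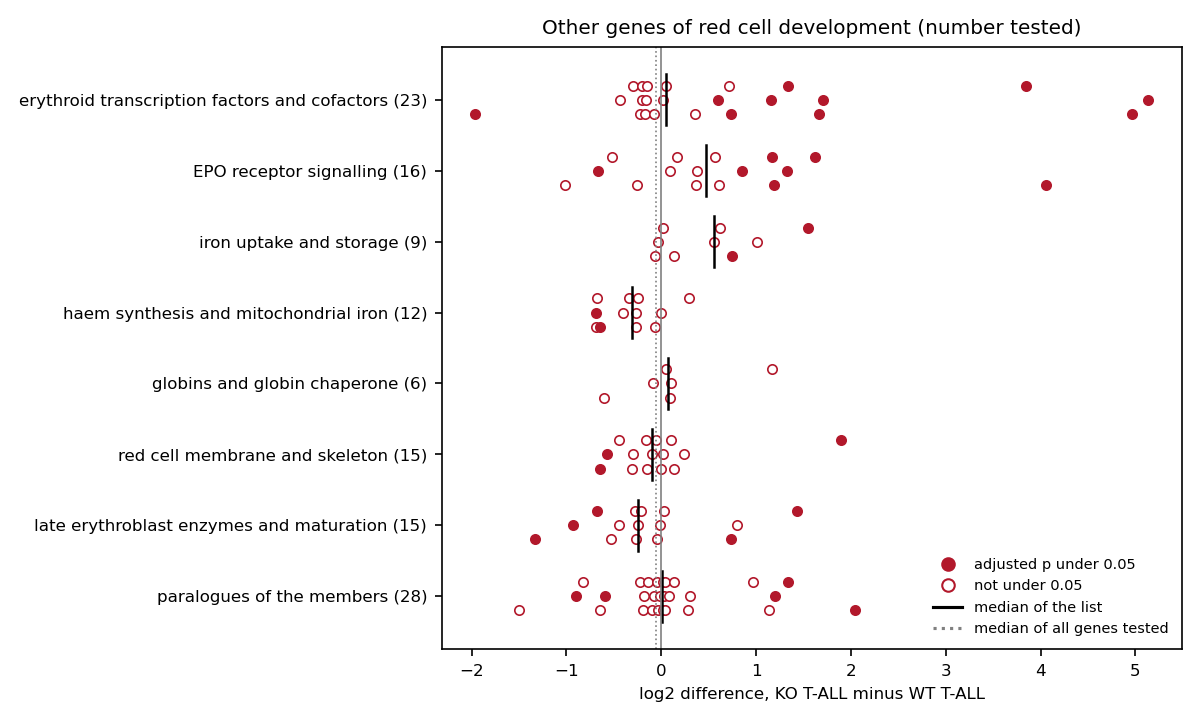
Log2 difference between KO T-ALL and WT T-ALL of the genes of 8 lists of red cell development, with the number tested in brackets, filled points for an adjusted p under 0.05 and vertical bars for the list medians. The filled points of the transcription factor list reach 5.14 for Lyl1, and both filled points of the haem list lie near −0.7.

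Between WT T-ALL and WT DP all lists but the globins held calls. Of the 23 transcription factors 7 were higher and 6 lower, and the higher ones include Lyl1 (0.72, adjusted p = 0.00294), Lmo2 (0.61, 0.00636), Nfe2 (0.62, 0.00659) and Gfi1b (0.38, 0.0333). Of the 15 late erythroblast genes 4 were higher, Ctse among them at 1.10 (adjusted p = 0.00682), and 3 were lower. Of 12 haem genes 6, and of 15 membrane genes 6, were higher there, with 2 and 0 lower, and Alad differed by 2.62 (adjusted p = 5.27e-05) and Abcb6 by 1.44 (adjusted p = 0.000597). Of the 16 signalling genes 0 were higher and 8 lower, with Bcl2l1 at −2.39 (adjusted p = 0.00102). Of the 9 iron genes 2 were higher, Tfrc, the main transferrin receptor, at 1.47 (adjusted p = 0.00328) and Hfe at 0.47 (0.0106). Between KO T-ALL and KO DP 6 of the 9 iron genes were higher. Beside these counts stand the shares of all genes in these 2 comparisons, 19.7% and 18.5% called higher and 14.2% and 11.0% called lower.

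Markers of other marrow cells were summed beside the members. The background level sums to 317 over the mast cell and over the neutrophil probe sets and to 282 over those of megakaryocytes. It sums to 353 over those of monocytes and macrophages and to 247 over those of B cells. Sums below these cannot, as sums, be told from background, as for mast cell markers outside KO T-ALL and B cell markers in both leukaemia groups. Single markers in such a sum can still exceed background. For mast cells 1 marker did so on average in each of WT T-ALL, KO DP and WT DP. For B cells 2 markers did so in KO T-ALL and 0 in WT T-ALL. Mast cell and basophil markers, of which 9 of 10 have a probe set and 5 were never above background, summed to 8161 to 9648 in KO T-ALL, 160.4 to 190.5 in WT T-ALL, 165 to 200.05 in KO DP and 174 to 188 in WT DP, and Cpa3 made up most of the knockout sum (mean 7622 ± 622). Megakaryocyte markers summed to 459 to 539 in KO T-ALL, 301 to 355 in WT T-ALL, 287 to 338 in KO DP and 279.7 to 319.7 in WT DP, with the defining Pf4, Ppbp and Vwf never above background and Itga2b higher by 1.30 (adjusted p = 0.00273). Neutrophil markers summed to 280.4 to 931 in KO T-ALL, 1157 to 2052 in WT T-ALL, 231 to 529 in KO DP and 211 to 478 in WT DP. Monocyte and macrophage markers summed to 309 to 424 in KO T-ALL, 345 to 361 in WT T-ALL, 295 to 333 in KO DP and 316 to 576 in WT DP, and B cell markers to 190.2 to 207 in KO T-ALL, 160.8 to 178 in WT T-ALL, 317 to 325 in KO DP and 351 to 362 in WT DP. Between KO T-ALL and WT T-ALL, limma called 4 of 6 mast cell markers tested higher, 1 of 6 megakaryocyte markers higher, 2 of 9 neutrophil markers lower, 1 of 9 monocyte markers higher and 1 lower, and 1 of 7 B cell markers higher. Of 15 T cell markers tested there, 0 were higher and 7 lower. Of all genes, 9.19% were higher and 6.98% lower, so a single call in a list is not read as a result. Between WT T-ALL and WT DP 7 of 9 neutrophil markers were higher, where 19.7% of all genes were. Of the mast cell markers, Ms4a2, Fcer1a, Mcpt4, Tpsb2 and Cma1 were never above background. Itga2b was the 1 megakaryocyte marker called. The mast cell sum, mostly Cpa3, and the megakaryocyte sum were highest in KO T-ALL, as Hemgn and Gata1 were. The neutrophil sum was highest in WT T-ALL, as Slc4a1, Alas2 and the adult globin level were. The part of these cell types in these results was not tested.

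The genes whose pattern over the 12 arrays was most like that of a member, by Pearson r of log2 values as a description of group patterns, were Sox13 (0.99), Nfe2 (0.99) and Khdc1a (0.99) for Hemgn and Filip1 (0.99), Adgrg1 (0.99) and Lsr (0.99) for Gata1. For Klf1 they were Plekhg3 (0.99), Deptor (0.98) and Ptpn3 (0.98), and for Epor Prss45 (0.98), Zdhhc2 (0.97) and Tnfaip2 (0.97). Slc4a1 was most like Vdr (0.97), Aqp1 (0.96) and Aggf1 (0.95), and Alas2 most like Prcd (0.97), Mtx1 (0.95) and Gm10451 (0.95). Car2 was most like Tbc1d19 (0.96), Rab10os (0.96) and Ada (0.95), and Ank1 most like Erc2 (0.93), Gabrr2 (0.92) and Zcchc14 (0.92). No list of likeness held another of the 9 genes. The Aqp1 probe set was above background on 1 array only.

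Array quality and the sets of arrays were looked at beside these results. Poly-A control transcripts, added to RNA before labelling, gave a signal on 5 arrays, 1 of KO T-ALL, 2 of WT T-ALL, 0 of KO DP and 2 of WT DP, and not on the other 7. With this set as a block, KO T-ALL minus WT T-ALL was 2.49 for Hemgn (adjusted p = 0.000377), 1.47 for Gata1 (0.000329), −1.68 for Car2 (0.00537) and −1.54 for Slc4a1 (0.0240), and Ank1 passed at −0.50 (0.0487). Within arrays with the signal, 1 against 2, the values were 2.84 for Hemgn, 1.47 for Gata1, −1.40 for Car2, −1.01 for Slc4a1, −0.85 for Epor and −0.59 for Alas2. Within arrays without it, 2 against 1, they were 2.15, 1.47, −1.96, −2.07, −0.47 and −0.61 for the same genes, with 0 of 15420 genes passing in limma. The Gapdh ratio of 3′ to 5′ probe sets ran from 0.964 to 2.98 in KO T-ALL, 0.969 to 2.48 in WT T-ALL, 1.12 to 3.33 in KO DP and 1.08 to 3.68 in WT DP.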

How the data were processed

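RNA of 12 samples was hybridised to 1-colour Affymetrix mouse arrays, 3 per group. The deposited values are intensities on a linear scale, 1 per probe set and array, and the method that summarised and normalised them is not given in the sources used here. Medians of the arrays ran from 36.5 to 39.3, and intensities from 3.07 to 21620. Their number, 3 per group, limits the precision. Groups came from the sample titles. Of 45101 probe sets, 34945 have 1 gene symbol in the platform annotation, 932 have several, 9160 have none and 64 are controls.

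Values were taken as log2(intensity + 16) and fitted by lmFit and eBayes of limma 3.58.1 under R 4.3.3, with the arrays of the groups compared, and all 12 arrays for the difference between genotype effects. A probe set was kept if it exceeded the 25th percentile of its array on at least 3 arrays, and each gene had its probe set of highest mean. This left 15420 of 18193 genes, and p-values were adjusted by Benjamini-Hochberg over them. The fit was tested on simulated data. Tables and plots were made in Python 3.11.15 with pandas 2.3.3 and matplotlib 3.10.9.

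Same-numbered samples deviated together between KO T-ALL and WT T-ALL (r = 0.40, 0.24 and 0.55) and between WT T-ALL and WT DP (0.45, 0.44 and 0.58). The labels give only the number, so the reported fits have no block, and the blocked value stands beside a result where it changes the call. Alternatives were the added constant, scaling, filter, probe set rule, eBayes settings, array weights, the replicate block, the poly-A set and leaving out each array. The adult globin covariate and the fit over all probe sets were chosen after seeing the data. The 9 genes and the lists were chosen with earlier results of these data known. Named genes are the 9, Mbd2, Xist, Notch1, the up to 4 passing genes of a list with the smallest p in a comparison, markers, and the 3 genes most like each member. Bcl2l1, Abcb6 and Tfrc were named under the same rule.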

Additional observations from a re-analysis of the deposited data

Results flagged for a closer look

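The difference between MBD2-/- and MBD2+/+ samples was not the same in leukaemia cells and thymocytes for 6 of the 9 genes, where 12.6% of all genes passed. This was tested as a difference of differences in limma over all 12 arrays. The log2 difference of effects was 2.37 for Hemgn (adjusted p = 1.03e-05) and 1.32 for Gata1 (0.000937). It was −1.33 for Car2 (0.00736), −1.56 for Slc4a1 (0.0112), −0.48 for Car1 (0.0247) and −0.62 for Epor (0.0332). Car1 was below background on all 12 arrays and passed the filter on low values only through the 3 WT T-ALL arrays, where it is high, so its test is not read as support. The Slc4a1 call was lost with array weights (−1.11, adjusted p = 0.0546) and with the adult globin covariate (−1.41, 0.0507). The Epor call was lost without any of 7 arrays in turn and with an added constant of 1 (−0.72, adjusted p = 0.0506). Xist differed by −6.45 in the same test, beside the X-linked Gata1, and Notch1 by 1.96. For none of the 9 genes can the part of the deletion be told apart from what goes with these differences.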

How the results depend on the processing

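Of 7 of the 9 genes called between KO T-ALL and WT T-ALL, 4 passed with an added constant of 64, 2 with the adult globin level as a covariate and 0 on the arrays without poly-A signal, where 2 KO T-ALL arrays met 1 of WT T-ALL and no gene at all passed in limma. Leaving out each array gave 4 to 6 calls, with 4 without WT T-ALL replicate 1. For WT T-ALL against WT DP the 6 calls became 0 with the covariate, and 5 to 7 on leaving out an array. For the difference of genotype effects the 6 calls became 3 on arrays without poly-A signal, and 4 to 6 on leaving out an array. KO T-ALL against KO DP gave 5 and KO DP against WT DP 0 without any 1 array. Calls over all genes moved with these settings too. For KO T-ALL against WT T-ALL they were 1417 higher and 1076 lower. They became 1249 and 930 with the constant of 64, 611 and 199 with the covariate and 1092 and 607 without WT T-ALL replicate 1. For the difference of genotype effects, 1212 and 731 became 987 and 586 without WT DP replicate 1. The causes were not tested.

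With the replicate number as a block, 0 of 15420 genes passed between KO DP and WT DP, where same-numbered samples do not pair (r = −0.52, 0.14 and −0.49), nor do those of KO T-ALL and KO DP (−0.39, 0.09 and −0.43), where Car2 stood at −1.19 (adjusted p = 0.0159). The block took Alas2 past the threshold in the difference of effects (−0.62, adjusted p = 0.0455), beside the changes given for Klf1, Hemgn and Ank1, and changed no other call of the 9 genes.

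Of the log2 differences recomputed, 844 kept direction and side of the threshold, 58 no longer passed, 24 newly passed and 23 changed sign, none of which had passed. Between KO DP and WT DP these were Epor (0.0127 with 75th percentile centring, 0.0534 with array weights, −0.1232 to 0.0535 on leaving out an array), Ank1 (0.0194 with array weights, −0.1918 to 0.0222 on leaving out an array), Alas2 (−0.171 to 0.0221 likewise), Slc4a1 (−0.0239 as the mean of its probe sets), Car1 (−0.0279 with poly-A signal as a block or on arrays without it, −0.0179 to 0.0700 on leaving out an array) and Klf1 (−0.0538 in both poly-A settings). Between WT T-ALL and WT DP it was Car2, at −0.11 with array weights, −0.24 with the covariate and −0.0477 to 0.3322 on leaving out an array. Between KO T-ALL and KO DP they were Ank1 (−0.0028 with 75th percentile centring, −0.0305 as the mean of its probe sets), Slc4a1 (−0.0005 with the covariate) and Car1 (0.12 with the covariate, 0.0220 in both poly-A settings, −0.0655 to 0.0224 on leaving out an array). Fits within arrays with poly-A signal were not run where a group has none, nor within arrays without it for WT T-ALL against WT DP, with 1 array each. Levels below an intensity of 35.3, as for Car1, cannot be told from background.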
